A study of Mus musculus with 13 samples.

Results

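Sox9 is the HMG-box transcription factor that cells need in order to become chondrocytes, the cells that make cartilage, and to make the collagens and proteoglycans of its matrix. Many binding sites of a lineage factor within a few kilobases of each other are a feature of super-enhancers, although spacing alone does not define these. Super-enhancers are known to stand near genes that a cell type uses at high level. The chains described here are groups of neighbouring Sox9 peaks from mouse rib chondrocytes and were treated as super-enhancer-like units by their spacing alone. The Class II list of rib Sox9 peaks was sorted by position, consecutive peaks were joined when at most 10 kb separated a peak from the furthest earlier end, and groups of 5 or more peaks were kept. The chains were therefore chosen by measured values, the positions of the rib Class II peaks, and nasal peaks played no part in the choice. This gave 281 chains with 1737 of the 20862 Class II peaks, or 8.33% of that list, in a rib list of 27656 peaks that also held 6794 Class I peaks.

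The series holds 13 ChIP-seq libraries of wild-type, untreated ICR mice, 11 from rib and 2 from nasal septum. The peak lists come from 2 of them, both made with the same Sox9 antibody, from chondrocytes released by enzyme digestion of rib at postnatal day 1 and of nasal septum at embryonic day 17.5. The nasal list held 17440 peaks. Each list comes from 1 library, so tissue, stage and library cannot be told apart and no test between conditions was made. Intervals of shares are 95% exact (Clopper-Pearson) binomial intervals. The interval of a difference joins the distances to the limits of both shares by the root of their summed squares. Intervals of medians, used only to judge other settings, were read from the ranked values. All of these intervals cover counting error only, and are too narrow where neighbouring peaks behave alike. The lists give positions without height, fold or significance, so neither read depth nor peak strength is known. The chondrocyte label could not be checked against marker genes, since the lists carry positions alone. All positions are mm9 and 1-based, and no mm9 gene annotation or genome sequence was used here, so chains are named by position.

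Peaks covered only a small part of the typical chain. Chain length had a median of 18.4 kb, with quartiles at 13.6 and 24.2 kb and extremes of 2.48 and 77.0 kb. The median gap between adjacent peaks of a chain was 2.98 kb. Of the 1456 gaps, 24.2% were under 1 kb, 44.9% lay between 1 and 5 kb, and 30.9% between 5 and 10 kb. The peaks themselves were narrow and covered a median of 5.84% of a chain, so most of the length of a chain lay between peaks. Median peak width was 181 bp in chains and 182 bp in the rest of Class II. Together the chains covered 5.58 Mb, or 0.218% of the length between the first and the last peaks of the chromosomes. These lengths and numbers follow from the rule and are given as a description.

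Small chains made up most of the set. Chains of 5 peaks numbered 147 and chains of 6 peaks 56. A further 28 chains had 7 peaks, 22 had 8, and 28 had 9 or more. Length rose with peak number across the 281 chains, with a Spearman correlation of 0.536, and a longer chain has more room for peaks by construction. At the threshold itself, the 147 chains of 5 peaks had a median length of 16.0 kb, and the 308 chains of 4 peaks, which the rule left out, 11.6 kb. The longest gap inside a chain was 9.997 kb, and the shortest distance between neighbouring chains was 10.8 kb.

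**Figure D1:**
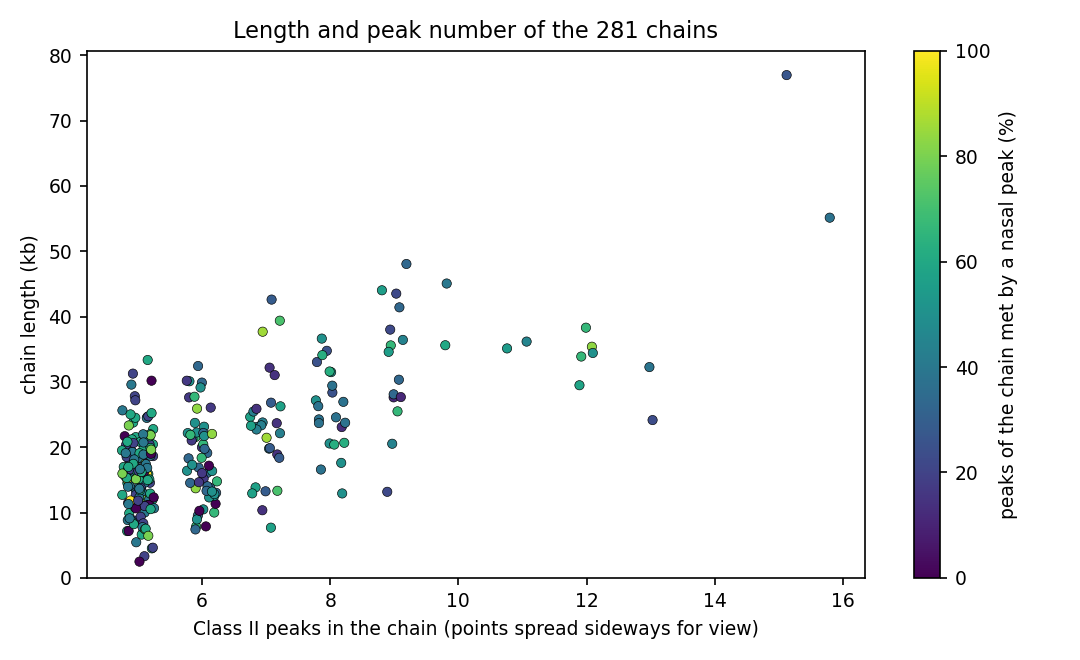
Chain length in kb against the number of Class II peaks for each of the 281 chains, with the colour giving the percentage of the chain's peaks that a nasal peak overlapped. Most chains have 5 or 6 peaks and lie under 30 kb, and the chains of 15 and 16 peaks are the longest, at 77.0 and 55.1 kb.

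The chain with the most peaks was chr7:124628682-124683825, with 16 peaks over 55.1 kb. Nasal peaks overlapped 6 of them. Its first peak, chr7:124628682-124628877, held place 25 of the Class II list, and this peak was overlapped by the nasal peak at place 168 of the nasal list. The chain's last 4 peaks, over the stretch from 41.5 to 55.0 kb from its start, had no nasal peak. The places of its peaks ran from 25 to 20205, almost the whole length of the list. Early and late peaks thus lay side by side in the same chain.

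The longest chain, chr4:62907792-62984768, held 15 peaks over 77.0 kb, and nasal peaks overlapped 4. Its first-listed peak, chr4:62984606-62984768 at place 1144, stood at its far end and was met by the nasal peak at place 904. The other 3 peaks that were met belonged to places 5552, 5661 and 15316. The nasal peaks on them held places between 13431 and 16425 of the nasal list. Between 41.9 and 69.5 kb from its start, 6 rib peaks in a row had no nasal peak.

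The chain at chr10:82593511-82628895 was among the most shared of the large chains. Nasal peaks overlapped 10 of its 12 peaks, or 83.3%, over 35.4 kb. That was the highest share among the 28 chains of 9 or more peaks. Each of the 10 nasal peaks in its span met a Class II peak. Both rib peaks without a nasal peak, at places 5566 and 5602, lay among peaks that were met. A chain of 5 peaks at chr10:82557119-82581629 ended 11.9 kb before it, and 3 of its peaks were met.

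A pair of chains flanked a block of Class I peaks on chromosome 15. The first, chr15:97804265-97828420, had 13 peaks over 24.2 kb, of which 3 were met. The second, chr15:97839467-97868956, had 12 peaks over 29.5 kb, of which 7 were met. Between them lay 11.05 kb with 10 Class I peaks and 3 nasal peaks. Within the second chain, 6 consecutive peaks from 16.6 to 24.5 kb after its start were all met, and one of these, chr15:97857018-97857188, was its first-listed peak at place 303. In the first chain, the peak at its far end, chr15:97827912-97828420, was the widest of all chain peaks at 509 bp and its first-listed peak, at place 588. The share met differed between these neighbours, at 23.1% and 58.3%. So did the median place of their peaks, at 15338 in the first chain and 5303.5 in the second.

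On chromosome 17, 2 chains had 12 peaks each. In chr17:71069347-71103231, nasal peaks overlapped 8, and in chr17:45901887-45936314 they overlapped 6. The former lay over a nasal chain of 11 peaks and the latter over a nasal chain of 8. The chain chr8:129185289-129223589 had 12 peaks with 8 met, and its first-listed peak was at place 174. The chain chr19:5805948-5838217 had 13 peaks with 5 met. All 5 lay within 17.7 kb of its start, and its last 6 peaks had no nasal peak. Its first-listed peak stood only at place 4850, the latest among these 10 chains. Of 2 chains with 11 peaks, the longer, chr2:155672550-155708721, had 5 met and took the last of the 10 ranks by its length. The other, chr6:137498803-137533929, had 6 met, and its first-listed peak held place 7.

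**Figure D2:**
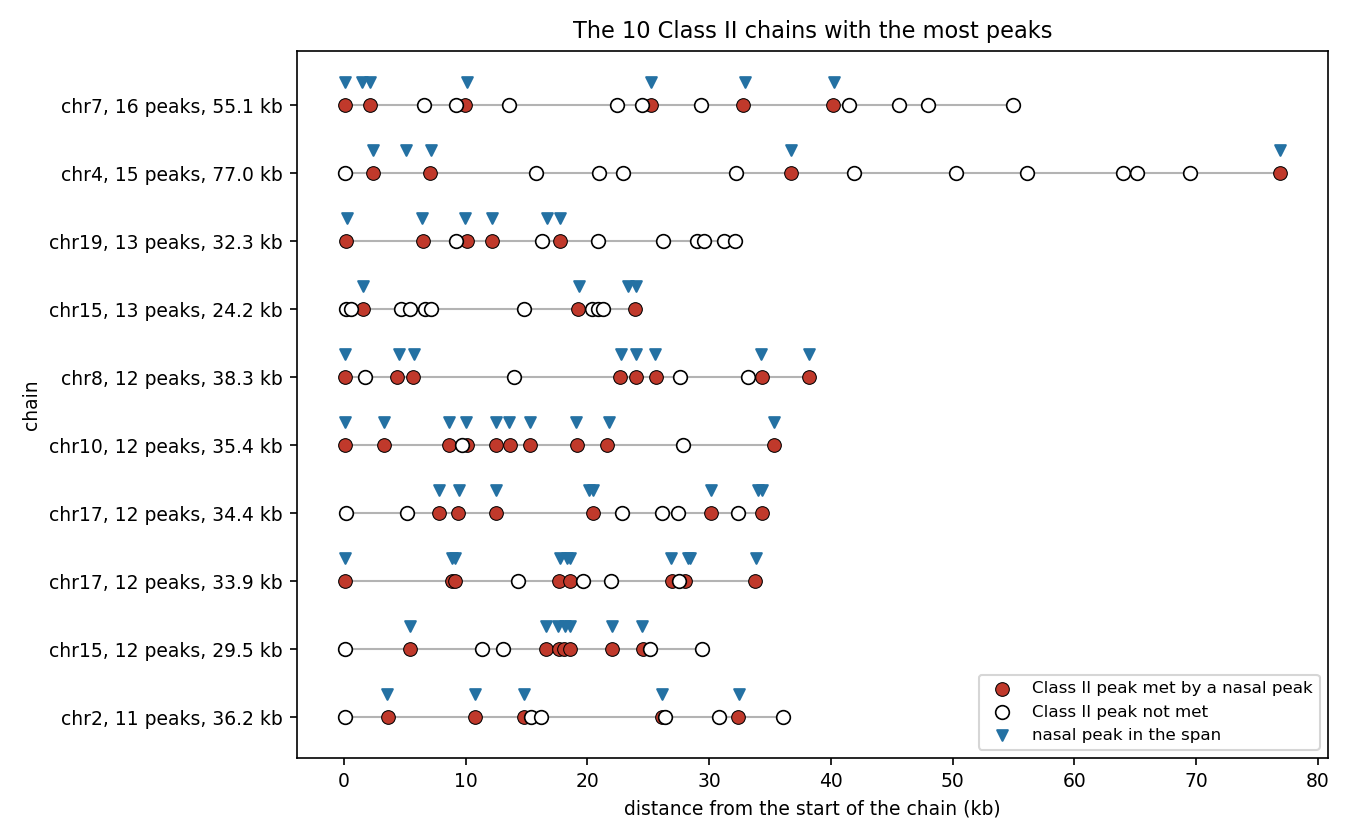
The 10 chains with the most peaks, the tie at 11 peaks settled by length, each on its own row, with the distance from the chain's start in kb. Circles are Class II peaks, red where a nasal peak overlapped them and white where none did, and triangles are nasal peaks in the span. Red and white circles are mixed along most rows, and the row of 12 peaks on chromosome 10 has the fewest white circles, 2.

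The share of chain peaks overlapped by a nasal peak was above that of the rest of Class II, and most of the gap went with place in the list. A peak was called met when a nasal peak overlapped it by 1 bp or more. Nasal peaks met 735 of the 1737 chain peaks, or 42.3% (39.98% to 44.7%), beside 34.4% of the whole Class II list. Outside chains they met 6435 of 19125 peaks, a share of 33.6% (33.0% to 34.3%). Chain peaks thus exceeded the others by 8.67 percentage points (6.23 to 11.1). Chain peaks stood earlier in the Class II list, with a median place of 8600 against 10575, and nasal overlap fell along the list. With peaks outside chains weighted to the places of the chain peaks, in 10 bins, their share was 39.4% and the difference 2.91 points. No label or file used here says by which quantity the authors ordered the list.

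The share of peaks met differed little with the size of a chain once a chain had 5 peaks. It was 42.2% in chains of 5, 41.4% in chains of 6, 42.3% in chains of 7, 42.6% in chains of 8 and 43.5% in chains of 9 or more, with overlapping intervals. Among the Class II peaks that the rule left out, it was 31.4% for peaks with no neighbour within 10 kb, 34.7% in groups of 2, 39.8% in groups of 3 and 36.6% in groups of 4. The intervals of groups of 3 (37.8% to 41.8%) and of chains of 5 (38.6% to 45.8%) overlapped. Across the 281 chains, the Spearman correlation between the share met and the peak number was -0.00866. These points share both libraries, and the correlation is a description.

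**Figure D3:**
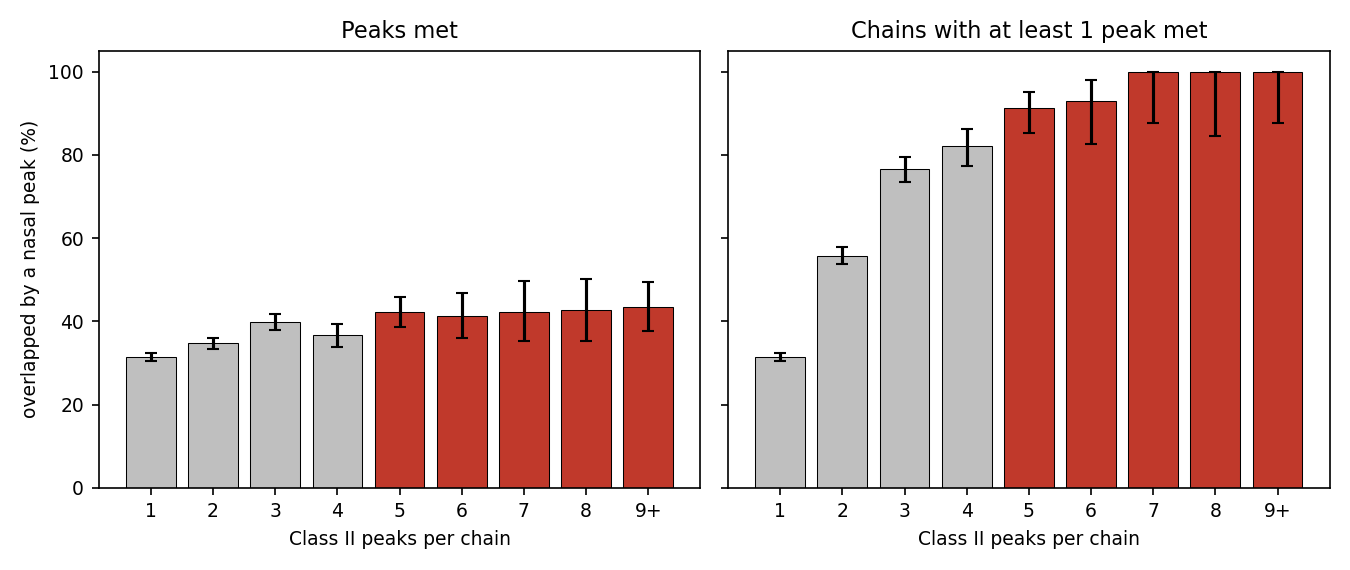
Left, the percentage of Class II peaks overlapped by a nasal peak, by the number of peaks in the chain, and right, the percentage of chains with at least 1 peak met. Bars are shares, error bars 95% exact binomial intervals, red bars the chains of 5 or more. The left bars from 5 peaks on lie between 41.4% and 43.5%, while the right bars climb to 100% with peak number.

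Taken chain by chain, the median chain had 40% of its peaks met, with quartiles at 23.1% and 60%. In 118 of the chains at least 50% of the peaks were met. A nasal peak met at least 1 peak in 264 chains, or 94.0% (90.5% to 96.4%), and 17 chains had none. A chain with more peaks has more chances to be met, and the same figure was 82.1% for groups of 4 and 31.4% for single peaks. In 50 chains exactly 1 peak was met.

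Every peak was met in 55 of 798 groups of 3 and in 11 of 308 groups of 4, which need fewer met peaks for this. The 3 chains in which every peak was met all had 5 peaks, among 147 chains of that size. These were chr11:113887806-113899640 over 11.8 kb, chr12:74876112-74891953 over 15.8 kb and chr15:59416798-59431890 over 15.1 kb. Their first-listed peaks held places 217, 691 and 2032. The last of them lay 21.8 kb beyond a chain of 9 peaks, chr15:59353536-59394950, of which 3 were met. Only 2 of its 5 peaks counted as met under the stricter demand that the overlap take up at least 50% of both peaks.

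The 17 chains without a met peak were small, 13 of 5 peaks and 4 of 6. Small chains have fewer chances to be met, and among groups of 4 peaks 55 of 308 had no met peak. The chains of 6 were chr4:119671221-119682554, chr9:27070082-27077955, chr17:5795985-5806243 and chr17:12314351-12331522. The first-listed peaks of these 4 stood at places 3675, 4232, 3475 and 2748. Among the chains of 5 were chr2:33026638-33040420, chr2:145549302-145556466, chr3:36377599-36395928, chr5:64828968-64840089, chr5:76845386-76867076 and chr5:135998250-136009415. In 3 of the 17 the first-listed peak lay in the first 10% of the Class II list, among them chr2:145549302-145556466 at place 1247 and chr5:64828968-64840089 at place 1277. In 16 chains of the whole set, no nasal peak of any kind lay in the span.

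In some large chains few peaks were met. Among the 50 chains of 8 or more peaks, 21 had at least 50% of their peaks met, beside 118 of all 281 chains. A single peak was met in 3 of the 50. In chr1:71688204-71715836, nasal peaks met 1 of 9 peaks, and 5 Class I peaks lay inside its 27.6 kb, the most in any chain. Its first-listed peak, chr1:71710715-71711006 at place 2435, was the one met. In chr11:116943012-116970688, 1 of 9 peaks was met, and in chr5:125424437-125447519, 1 of 8. That last chain's first-listed peak held place 117 and was the one met. The chains chr11:117099599-117137602, chr10:58972031-58985200 and chr13:34281643-34325159 tied with 2 of 9 peaks met. The first-listed peak was met in 5 of these 6 chains, and in the chain on chromosome 13 it was unmet at place 720. The spans of these 6 chains held between 1 and 4 nasal peaks, beside a median of 3 over all chains. In the order named, the median places of their peaks were 14652, 14157, 16999.5, 12808, 15535 and 10089. All are later than 8243, the median of this value over all chains.

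Nasal overlap within chains followed the place of each peak. The first-listed peak of a chain, with a median place of 1388, was met in 228 of 281 chains, or 81.1% (76.1% to 85.5%). The second-listed peak was met in 60.5%, the third in 47.7%, the fourth in 30.6% and the fifth in 23.5%. Peaks of rank 6 or later were met in 15.4% (11.7% to 19.7%). Peaks outside chains from the same 10 bins of the list gave 73.5%, 56.0%, 41.9%, 29.8%, 20.6% and 18.4%. The value for rank 1 lay below the interval of the chain peaks, and those for ranks 2 to 6 or later lay inside it. Rank 1 is by selection the earliest peak of its chain, and places inside a bin were not matched. What this adds to the difference at rank 1 was not tested. The rank itself is set by place, so the fall along the ranks restates the fall along the list.

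**Figure D4:**
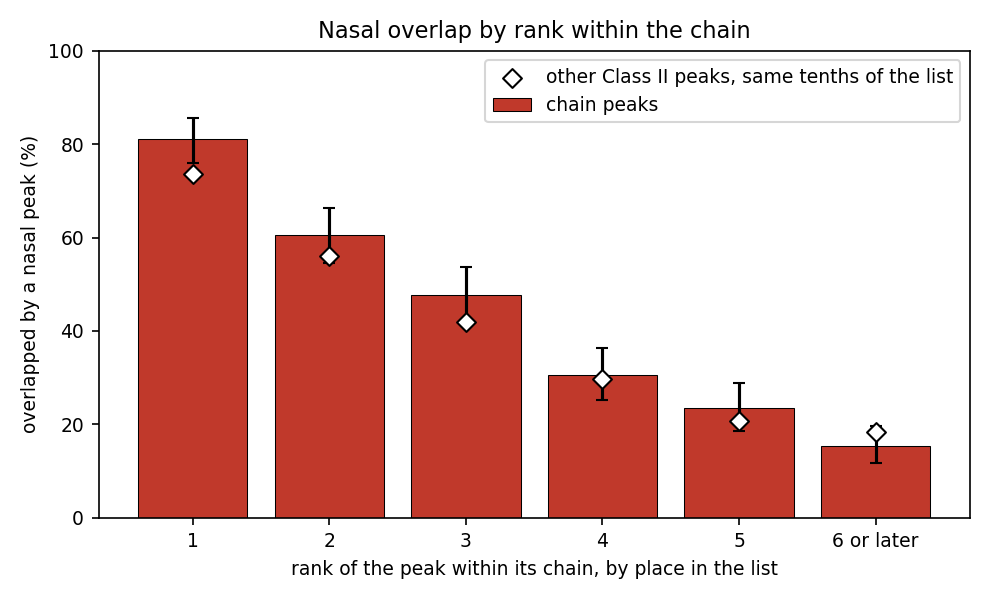
The percentage of chain peaks overlapped by a nasal peak, by the rank of the peak within its chain when ordered by place in the Class II list. Bars are chain peaks with 95% exact binomial intervals, and diamonds are other Class II peaks weighted to the same 10 bins of the list. Bars fall from 81.1% at rank 1 to 15.4% at rank 6 or later, and the diamond at rank 1 lies at 73.5%.

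Most chains contained a peak from near the head of the list. In 187 chains, 66.5% of the set, the first-listed peak fell in the first 10% of Class II, and in 39.9% in the first 1000 places. A chain has at least 5 peaks and so at least 5 chances of an early one. Chain peaks made up 13.5% of bin 1 of the list and 6.47% of bin 10. The earliest place in any chain was 4, in chr14:121567722-121612783, a chain of 10 peaks over 45.1 kb with 4 met. In 2 chains, every peak lay in the later 50% of the list. One of these was the shortest chain, chr6:17119968-17122446, with places from 11177 to 18000.

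Within bins of the list, chain peaks were met more often than other Class II peaks in bins 1 to 3, by 4.90, 6.95 and 9.92 points. In bin 1, nasal peaks met 88.6% of 281 chain peaks (84.3% to 92.1%) and 83.7% of 1805 others (81.9% to 85.4%). Bin 2 gave 68.2% (61.5% to 74.4%) for chain peaks and 61.3% (59.0% to 63.5%) for the others. Bin 3 gave 57.8% (50.1% to 65.3%) and 47.9% (45.6% to 50.1%). The intervals overlapped in each of bins 1 to 3. From bin 4 on, the difference lay between -3.52 and 4.73 points, and was negative in bins 4, 9 and 10. In bin 10 the shares were 7.41% (3.61% to 13.2%) and 10.8% (9.42% to 12.2%). Across chains, the share met and the median place of the chain's peaks had a Spearman correlation of -0.403.

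**Figure D5:**
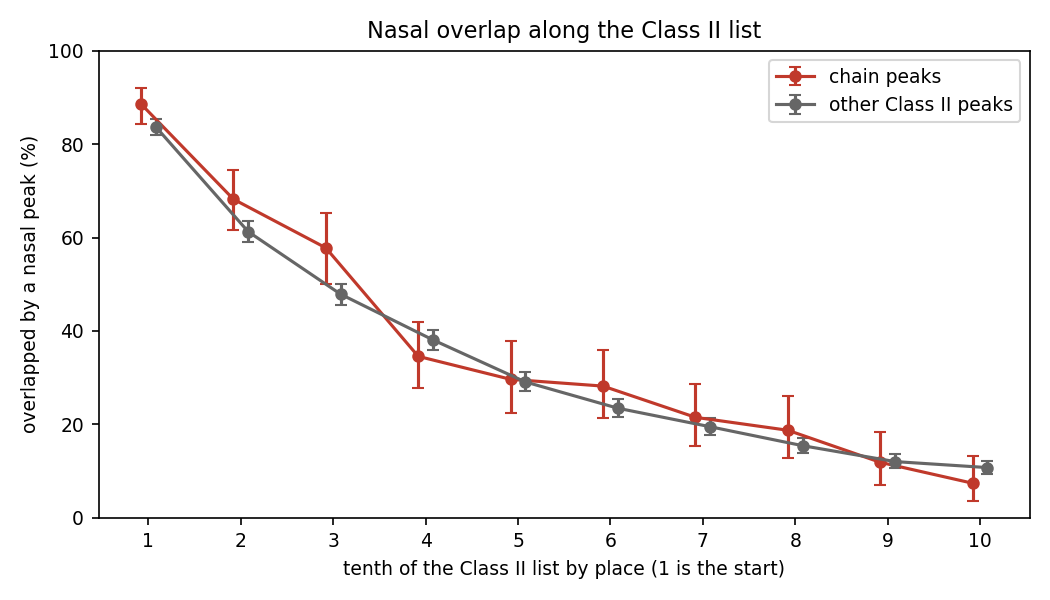
The percentage of peaks overlapped by a nasal peak in 10 equal bins of the Class II list by place, for chain peaks in red and other Class II peaks in grey, with 95% exact binomial intervals. Both fall along the list, from 88.6% and 83.7% in bin 1 to 7.41% and 10.8% in bin 10. Chain peaks lie above the others by 4.90 to 9.92 points in bins 1 to 3, with overlapping intervals.

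Position inside the chain and the state of the neighbour went with small differences. Peaks at either end of a chain were met in 43.4% (39.3% to 47.6%) and peaks inside it in 41.8% (38.9% to 44.7%). The first-listed peak stood at an end in 33.8% of chains, where ends made up 32.4% of chain peaks. After a met peak, the next peak along the chain was met in 44.0% of 607 pairs (39.99% to 48.0%), and after an unmet peak in 41.5% of 849 pairs (38.1% to 44.9%). In groups of 2 to 4 peaks the same shares were 41.1% and 34.6%. Across chains, span per peak and share met had a Spearman correlation of 0.0236.

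The nasal peaks in chain spans fell almost wholly on rib peaks. The 281 spans held 810 nasal peaks, 4.64% of the nasal list, or 145 per Mb against 6.52 per Mb outside. Of these, 739 met a Class II peak of the chain, 19 met a Class I peak, and 52 met no rib peak. Nasal peaks on no rib peak thus made up 6.42% in chains and 33.0% outside them. Over the whole nasal list, 68.2% of peaks met a rib peak. The median chain held 3 nasal peaks, and the most in any chain was 10. In 209 chains every nasal peak of the span met a Class II peak, and in 44 chains at least 1 nasal peak met no rib peak. Chains are dense in rib peaks by the rule, which bears on these shares.

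Where rib and nasal peaks met in chains, they lay as close as elsewhere. Their centres were a median of 34.5 bp apart, and 66.3% were within 50 bp. For other Class II peaks that were met, the median was 32 bp and 66.9% were within 50 bp. The nasal peaks on chain peaks stood at a median place of 6598 of the nasal list, and those on other Class II peaks at 7707. In the first 10% of the nasal list lay 16.3% of the former and 12.1% of the latter. In 96 chains at least 1 nasal peak of the span came from the first 10% of the nasal list, a count not made for smaller groups.

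The nasal list formed chains of its own at some of the same regions. By the same rule it gave 141 chains of 5 or more peaks. Of these, 49 overlapped a Class II chain, or 34.8% of the nasal chains and 17.4% of the Class II chains. A nasal group of at least 3 peaks lay over 134 of the 281 chains, and one of at least 2 over 202. The largest nasal chains over a Class II chain had 11 peaks, over the chains named above on chromosome 19 and at chr17:71069347-71103231. The nasal list is shorter than the Class II list, and the part of list length in these counts was not tested. Nor were the counts made for smaller Class II groups, so they describe the chains alone.

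Class I peaks were few inside the chains in number, though denser there than outside. The spans held 36 Class I peaks, 0.530% of that list, in 21 chains, or 7.47% of the set. Class I density was 6.45 per Mb in the spans and 2.65 per Mb outside. Counting 10 kb on either side, 60 chains, or 21.4%, had a Class I peak. These shares of chains were not set beside those of smaller Class II groups. Apart from the chain on chromosome 1 with 5 Class I peaks, no chain held more than 4. The rule joined Class II peaks alone, so groups made up largely of Class I peaks were left out. With both classes joined, the whole rib list gave 447 chains of 5 or more peaks. Of these, 221 held no Class I peak and 152 held under 5 Class II peaks.

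Some chains stood in series. Of the 281 chains, 40 lay within 50 kb of another chain, and 14 pairs of neighbours were at most 25 kb apart. Distances between smaller Class II groups were not measured beside these. On chromosome 6, 3 chains followed each other from 37304358 to 37381942, with 8, 6 and 7 peaks and with 3, 2 and 3 of them met. The distances between them were 12.47 and 11.2 kb. In 13 of the 14 pairs no Class I peak lay between the chains, and the exception was the pair on chromosome 15. Outside the spans Class I peaks stood at 2.65 per Mb, so most stretches of at most 25 kb would hold none. With a largest gap of 25 kb in place of 10 kb, the number of chains was 763 and their median length 44.1 kb.

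The densest chains spanned a few kilobases. The shortest, chr6:17119968-17122446, placed 5 peaks in 2.48 kb, with peaks covering 53.9% of it, and no nasal peak met it. The chain chr3:113652765-113656077 had 5 peaks in 3.31 kb, of which 1 was met. The chains chr9:122363311-122367823 and chr14:121507138-121511753 had 5 peaks in 4.51 and 4.62 kb, with 3 and 1 met. In chr12:88139931-88145377, 5 peaks lay in 5.45 kb and 2 were met. A possible split of one enrichment into several peaks, and repeated sequence under these chains, were not tested. Among the 5 longest chains, chr18:82886816-82934869 and chr1:92530307-92574333 spread 9 peaks each over 48.1 and 44.0 kb, with 3 and 5 met.

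Chains were found on all 19 autosomes. Chromosome 17 had the largest part of its Class II peaks in chains, 13.4% in 18 chains, and chromosome 11 the smallest, 5.56% in 12 chains. None of the 199 Class II peaks of chromosome X belonged to a chain. The share of chain peaks met ranged from 32.1% on chromosome 4 to 53.9% on chromosome 8. It was above that of the other Class II peaks on 17 of the 19 autosomes. The exceptions were chromosome 4, with 32.1% against 34.7%, and chromosome 5, with 33.7% against 36.2%.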

How the data were processed

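The authors deposited 4 lists of Sox9 peaks as chromosome, start and end, with no score, on mm9 per the submitters' processing notes. The aligner, the caller and how the classes were drawn are steps not given in the sources used here. Each list is titled with the label FDR1, which points to a false discovery rate cutoff, but the label is not explained there. Input and IgG libraries are part of the series, and which of them served as control for the calls is not stated. Each list stems from 1 library, so there are no replicates. The members and lists were chosen with earlier results of these data known. Place is the line number of a peak in the Class II or nasal list. For weighted shares, the Class II list was divided by place, or by width, into 10 bins. Chains were named by rules on peak number, length, density and share met: the 10 with the most peaks (ties by length), the 5 longest, the 5 densest, up to 10 without a met peak, those with all peaks met, and the 5 of 8 or more peaks with the lowest share. Other overlaps, gaps, peak minimums, merging, autosomes alone, weights and the first 50% of the nasal list were tried. Motif and gene-list results, which call for mm9 sequence and genes, were left out. Chaining and overlap were tested on simulated data, where 5879 of 5879 peaks had the planted chain size and overlap, and differed from bedtools 2.31.1 for 0 of 20862 Class II peaks. The software was Python 3.11.15 with pandas 2.3.3, numpy 2.4.6, matplotlib 3.10.9 and scipy 1.17.1.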

Additional observations from a re-analysis of the deposited data

How the results depend on the processing

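Of 94 values recomputed for the whole set, 53 stayed within the interval of the reported value, or within 1.5 times it for the number of chains. Some of these 53 could not move. No chain lay on chromosome X, so with autosomes alone the values of the chains themselves were bound to stay. The difference in nasal overlap between chain peaks and other Class II peaks stayed above 0 under each alternative run, from 2.86 to 14.8 points. With at least 50% of both peaks shared, the shares were 29.5% and 23.7%, the difference 5.82, the median chain 28.6% and chains met 85.1%. With gaps of up to 1 kb counted, where a nasal peak near one chain peak can also count for its neighbour, they were 53.1% and 38.3%, the difference 14.8 and the median chain 57.1%. With the first 50% of the nasal list they were 25.8% and 18.8%, the median chain 20% and chains met 79.7%. Weighting other peaks by place gave 39.4% and a difference of 2.91 in 10 bins, and 39.5% and 2.86 in 50 bins, the latter chosen after the data were seen. A largest gap of 5 kb gave 93 chains, a median length of 9.84 kb, 89.2% of chains met and 3.23% with a Class I peak. At the gap run between 10 and 25 kb the median length was 22.3 kb and 11.4% held a Class I peak. At 25 kb there were 763 chains of 44.1 kb, 39.4% of chain peaks and 32.6% of others were met, and 19.4% of chains held a Class I peak. A minimum of 4 peaks gave 589 chains, 14.2 kb, 39.9% of peaks met and 87.8% of chains. A minimum of 6 gave 134 chains, 23.1 kb and 97.0%, and a minimum of 8 gave 50 chains, 30.9 kb, 100% and a median chain of 39.2%. Fewer or longer chains follow from these settings by construction. Lengths, Class I shares and first-listed peaks under other settings were added after the data were seen. Of 144 counts for single named chains, 32 moved by over 1.5 times or to or from 0. Of these, 18 moved with the first 50% of the nasal list and 10 with at least 50% of both peaks shared. Under these settings named chains without a met peak could only stay at 0, so the part that moved understates how far the other counts depend on them. No paired analysis was possible because each tissue has 1 Sox9 library and no test was made. Without counts behind the peaks, what depth limits is unknown.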

Other observations

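Narrow peaks were met less often in chains and outside them. Peaks under 50 bp wide made up 61 of the chain peaks, 3.51%, and 27.9% of these were met, against 42.8% of wider chain peaks. Outside chains, 24.5% of 462 such peaks were met and 33.9% of wider ones. Adjacent peaks that shared bases occurred once in each of 14 chains, and merging peaks under 100 bp apart left 272 chains.

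The nasal list held 92 chains of 5 or more peaks that overlapped no Class II chain. All 92 had at least 1 rib peak in the span, and 65 had at least 1 Class II peak there. Over the whole nasal list 68.2% of peaks met a rib peak, and each of these chains has at least 5 chances. Neither count was set beside smaller nasal groups.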
